A study of Mus musculus with 20 samples.

Results

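Colitis mice given cyclosporine A were compared with untreated colitis mice on 8 of the study's 20 arrays, 4 arrays of each group, chosen by array title. The study as a whole measured the middle part of the colon of 20 female mice in 5 groups of 4, with healthy or colitis mice left untreated or given a probiotic mixture, and the last group being colitis mice given cyclosporine. Every mouse was a C57BL/6JOlaHsd female of about 11 weeks. The cyclosporine colitis mice, numbered 4, 7, 9 and 10, drank 3% dextran sulphate sodium (DSS) for 5 days and received cyclosporine at 25 mg/kg by mouth each day from day 1 to day 15, suspended in 2% methocel at 10 ml/kg. The untreated colitis mice, numbered 5, 6, 7 and 10, drank the same DSS and are labelled as given no treatment, or saline in the series design. The drug and its methocel vehicle therefore cannot be told apart, no healthy mice received cyclosporine, and neither the cage of each mouse nor the hour of sampling is given. A number shared by a mouse of each group is a name within its group.

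DSS is a sulphated polymer that damages the lining epithelium of the colon and lets bacteria reach the tissue beneath, which draws in neutrophils and other immune cells. Cyclosporine binds the protein cyclophilin A, and the pair blocks calcineurin, the phosphatase that frees the transcription factor NFAT to enter the nucleus and switch on cytokine genes in activated T cells. It is used against severe ulcerative colitis.

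Values are log2 expression levels, a step of 1 being a doubling of signal. Changes are cyclosporine colitis minus untreated colitis, given ± the standard error of a limma fit over all 20 arrays, with n = 4 mice in each group, and a gene is said to have risen or fallen when its Benjamini-Hochberg adjusted p was under 0.05. Array medians lay between 6.22 and 6.29, and the arrays within cyclosporine colitis correlated at 0.982 to 0.990, those within untreated colitis at 0.969 to 0.985, and pairs across the groups at 0.956 to 0.979. The first principal component of the 8 arrays held 44.9% of the variance, and the 4 cyclosporine arrays scored 10.3 to 21.9 on it, against -31.1 to -3.3 for the untreated arrays. Untreated mouse 6 stood nearest to the cyclosporine arrays with its -3.3, and untreated mouse 7 farthest from them. Untreated mouse 6 had the lowest mean correlation with its own group (0.976), but only just, untreated mice 7 and 5 having 0.978 and 0.979. Probiotic colitis mouse 8 (0.977) and untreated healthy mouse 2 (0.984) had the lowest in their groups. Counts that shift without untreated mouse 6 are given below. All 14 epithelial lineage markers and all 15 smooth muscle markers passed the level filter of 5.30. The goblet cell, surface colonocyte and enteric neuron lists had 17 of 17, 19 of 22 and 14 of 16 members that passed it. As 16739 of all 21423 symbols passed too, this says little about the tissue. Mean levels in cyclosporine and untreated colitis were 10.71 to 10.92 and 10.64 to 10.95 for epithelial lineage markers. For smooth muscle markers they were 9.68 to 10.30 and 9.43 to 9.75.

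Of 16739 genes tested, 2202 (13.2%) passed, of which 1268 rose and 934 fell in cyclosporine colitis, or 7.58% and 5.58% of the genes tested. The changes of 86 risers and 64 fallers (0.514% and 0.382%) were at least 2-fold. Of 3052 probe sets with no gene symbol 63 rose and 47 fell (2.06% and 1.54%), and of 835 with several symbols 25 rose and 18 fell (2.99% and 2.16%). Arrays of the 2 groups did not overlap, with cyclosporine colitis higher, in 1358 genes (8.11%), and with it lower in 1148 genes (6.86%). The count of falls depended on single mice, being 510, 580 and 587 without cyclosporine mouse 7, cyclosporine mouse 4 or untreated mouse 7, and that of rises was 843 without cyclosporine mouse 7. A fit of the 8 arrays alone gave 724 rises and 395 falls. Leaving out untreated mouse 6, probiotic colitis mouse 8 and untreated healthy mouse 2 together gave 1644 and 1424. Of the untreated colitis mice, mouse 6 stood nearest to the cyclosporine arrays.

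**Figure D1:**
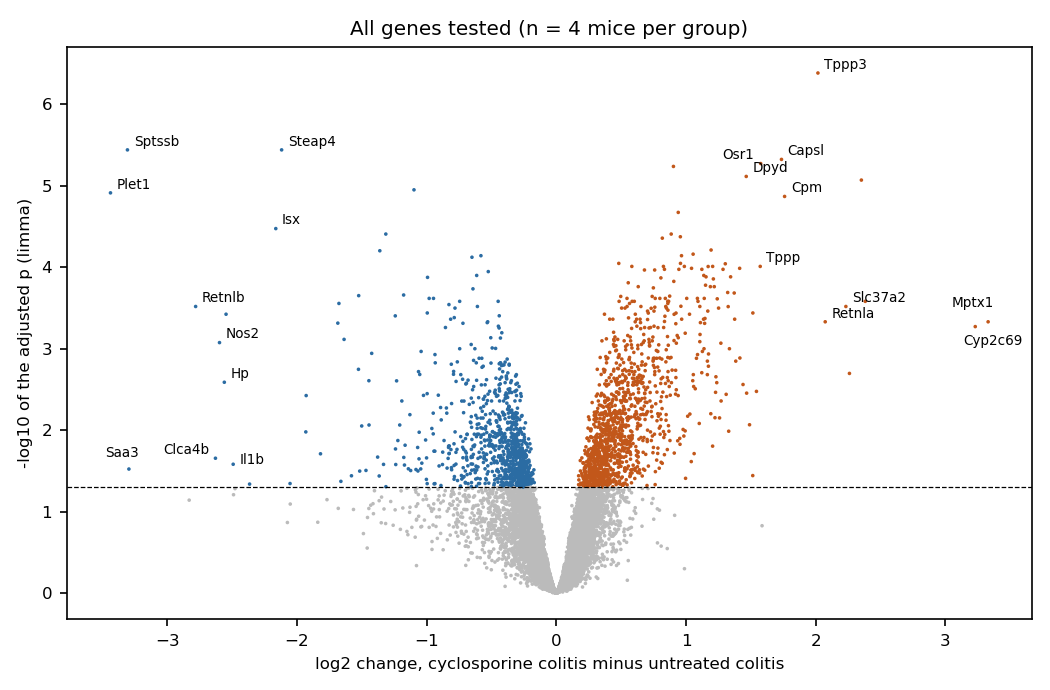
Each point is 1 of the 16739 genes tested, placed by its log2 change (cyclosporine colitis minus untreated colitis, 4 mice each) and by -log10 of its limma adjusted p, with a dashed line at 0.05. The 1268 genes that rose are orange and the 934 that fell are blue, Mptx1 and Cyp2c69 lying farthest right, Plet1 and Sptssb farthest left, and Tppp3 highest.

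The 15 largest falls were taken from genes that passed and whose groups did not overlap. They included Plet1, Sptssb and Steap4, whose arrays were far apart in every mouse. Plet1, a surface protein of regenerating colonic epithelium, read 8.63, 8.05, 8.64 and 8.24 in cyclosporine colitis mice 4, 7, 9 and 10, against 11.18, 11.40, 12.63 and 12.10 in untreated colitis mice 5, 6, 7 and 10. Each cyclosporine mouse lay below each untreated mouse, and Plet1 fell by 3.44 ± 0.35 (10.8-fold, adjusted p = 1.22e-05). Its mean was 7.01 ± 0.21 (SD, n = 4) in untreated healthy mice, below both colitis groups. Sptssb, a small subunit of the enzyme that starts sphingolipid synthesis, read 4.16, 4.49, 5.11 and 4.35 in cyclosporine colitis, against 8.04, 7.43, 8.55 and 7.31 in untreated colitis, a fall of 3.31 ± 0.29 (adjusted p = 3.62e-06). Its cyclosporine mean lay under the filter level, where background compresses differences, as did those of Il1a and S100a9 below. Steap4, a metal reductase of the cell membrane, read 7.17, 7.31, 7.08 and 7.47 in cyclosporine colitis, against 9.26, 9.67, 9.43 and 9.13 in untreated colitis, a fall of 2.12 ± 0.19 (adjusted p = 3.62e-06). Both groups were tight, and no mouse of one came near the other. Isx, a homeobox factor that in the intestine represses genes of vitamin A uptake, fell by 2.16 ± 0.24 (adjusted p = 3.35e-05) with readings of 6.22 to 7.20 in cyclosporine colitis and 8.53 to 9.13 in untreated colitis.

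Genes of host defence were also among the largest falls. Nos2, the inducible nitric oxide synthase, read 7.00, 6.74, 7.07 and 7.63 in cyclosporine colitis, against 8.63, 9.56, 10.54 and 10.09 in untreated colitis, and fell by 2.60 ± 0.43 (adjusted p = 0.000841). Hp, the haemoglobin scavenger haptoglobin, read 6.88, 6.52, 6.31 and 6.52 in cyclosporine colitis, against 9.39, 8.06, 10.54 and 8.47 in untreated colitis, and fell by 2.56 ± 0.50 (adjusted p = 0.00258). In both genes untreated mouse 7 was the highest of the 8 mice, and the groups did not overlap, as the rule of choice required. Retnlb, a goblet cell protein with antibacterial activity, read 6.89, 5.87, 5.70 and 5.55 in cyclosporine colitis, against 8.22, 8.80, 10.06 and 8.06 in untreated colitis, and fell by 2.78 ± 0.41 (adjusted p = 0.000303). Lrg1, an acute phase glycoprotein, fell by 1.93 ± 0.40 (adjusted p = 0.00376), and Cxcl5, a neutrophil attractant made by epithelium, by 1.93 ± 0.47 (adjusted p = 0.0105). Cyclosporine mouse 10 read 7.71 for Cxcl5, while the other 3 cyclosporine mice read 6.23 to 6.45, and untreated mouse 6 read 7.71 as well. Khdc1a fell by 2.55 ± 0.39 (adjusted p = 0.000377), its cyclosporine readings being 5.09 to 7.65, and its untreated ones 8.33 to 8.95.

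Other large falls lost their call when certain single mice were left out. Saa3, an acute phase serum amyloid, read 6.50, 6.20, 6.11 and 6.37 in cyclosporine colitis, against 9.86, 6.63, 12.04 and 9.84 in untreated colitis, and fell by 3.29 ± 0.97 (adjusted p = 0.0300). The cyclosporine mice lay close together while the untreated mice were scattered, untreated mouse 6 being close to the cyclosporine group. The call was lost, with adjusted p of 0.0547 to 0.108, without any one of untreated mice 5, 7 or 10 or of cyclosporine mice 4, 7 or 9. Il1b, the cytokine interleukin 1 beta, read 7.70, 7.43, 7.40 and 7.73 in cyclosporine colitis, against 9.40, 7.80, 12.59 and 10.43 in untreated colitis, and fell by 2.49 ± 0.71 (adjusted p = 0.0262). Without untreated mouse 7 its change was -1.65, and the call was lost without that mouse, untreated mouse 10 or any one of cyclosporine mice 4, 7 and 9 (adjusted p 0.0504 to 0.0884). Il1a, its close relative, fell by 2.36 ± 0.76 (adjusted p = 0.0459) and by 1.37 without untreated mouse 7, and S100a9, a subunit of the neutrophil protein calprotectin, fell by 2.05 ± 0.66 (adjusted p = 0.0452). When 1 mouse of either group was left out, both kept their call only without untreated mouse 6, the adjusted p being 0.0548 to 0.144 for Il1a and 0.0726 to 0.158 for S100a9 without any other mouse. Clca4b, of a family of chloride channel regulators whose close copies can share probes, fell by 2.63 ± 0.73 (adjusted p = 0.0221), and lost its call without untreated mouse 7 or cyclosporine mouse 7 (0.0521 to 0.0873). It read 10.97, 8.47, 10.41 and 10.40 in cyclosporine colitis, against 12.55 to 12.83 in untreated colitis, cyclosporine mouse 7 being the low one.

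The 15 largest rises, chosen by the same rule, were led by Mptx1 and Cyp2c69. Mptx1, a mucosal pentraxin of the colon lining, read 10.72, 10.62, 10.45 and 10.25 in cyclosporine colitis, against 6.62, 6.20, 7.65 and 8.24 in untreated colitis, and rose by 3.33 ± 0.52 (10.1-fold, adjusted p = 0.000467). The untreated mice were scattered, and each lay well below the lowest cyclosporine mouse. Slc37a2, a sugar phosphate carrier, read 10.71, 10.89, 9.99 and 10.13 in cyclosporine colitis, against 8.55, 8.45, 7.42 and 8.37 in untreated colitis, and rose by 2.23 ± 0.33 (adjusted p = 0.000303). Cyp2c69, a cytochrome P450 of a family whose copies can share probes, read 7.10, 8.06, 7.91 and 5.94 in cyclosporine colitis, against 4.53, 4.19, 2.95 and 4.42 in untreated colitis, and rose by 3.23 ± 0.51 (adjusted p = 0.000535). Its untreated mean lay under the filter level, and so did those of Retnla, a resistin-like protein, which rose by 2.07 ± 0.32, and Capsl, which rose by 1.74 ± 0.16 (adjusted p = 0.000467 and 4.74e-06).

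Tppp3, a tubulin-binding protein, had the smallest adjusted p of all genes. It read 9.20, 9.68, 9.53 and 9.76 in cyclosporine colitis, against 7.50, 7.62, 7.39 and 7.59 in untreated colitis, and rose by 2.02 ± 0.15 (4.05-fold, adjusted p = 4.12e-07). The groups were both tight and far apart, and the untreated healthy mean was 9.30 ± 0.15 (SD, n = 4). Its relative Tppp rose by 1.57 ± 0.20 (adjusted p = 9.76e-05), the groups reading 8.33 to 8.59 in cyclosporine colitis and 6.63 to 7.13 in untreated colitis. Osr1, a transcription factor of mesenchyme, read 9.49, 9.59, 8.94 and 9.50 in cyclosporine colitis, against 7.80, 7.53, 7.92 and 7.97 in untreated colitis, and rose by 1.58 ± 0.15 (adjusted p = 5.33e-06). Cyclosporine mouse 9 was the low one of its group and still above all untreated mice. Cpm, a membrane carboxypeptidase, rose by 1.76 ± 0.18 and Fmo2, a flavin monooxygenase, by 1.42 ± 0.25 (adjusted p = 1.35e-05 and 0.0013). Among metabolic genes, Otc of the urea cycle rose by 1.47 ± 0.30, Dpyd of pyrimidine breakdown by 1.46 ± 0.14, and Trpm6, the magnesium channel of the colon, by 1.38 ± 0.25 (adjusted p = 0.00351, 7.67e-06 and 0.00142).

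**Figure D2:**
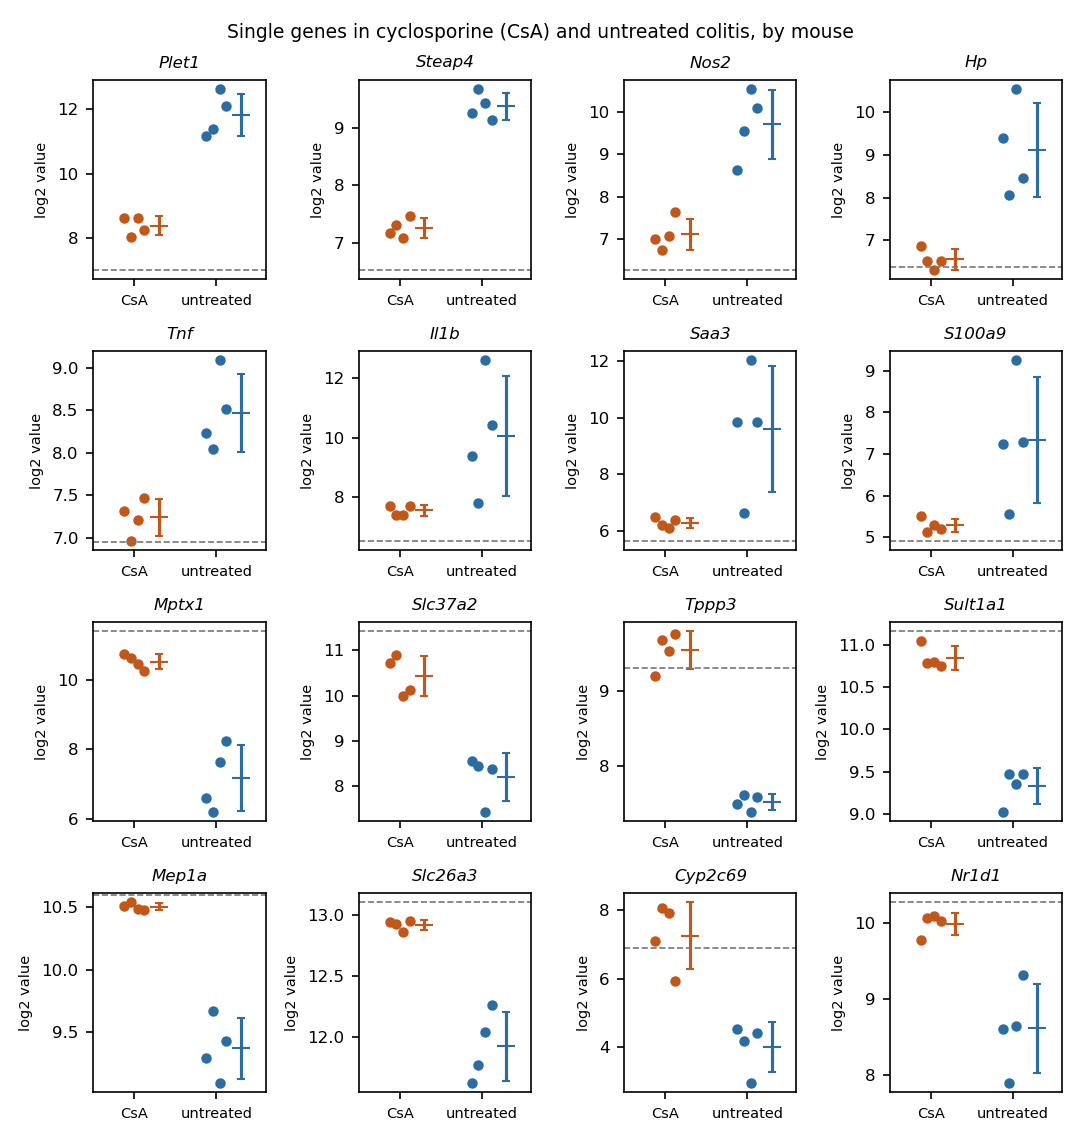
Log2 values of 16 genes in cyclosporine colitis (orange, mice 4, 7, 9 and 10 from left to right) and untreated colitis (blue, mice 5, 6, 7 and 10), 1 point per mouse, with the mean and SD beside the points and the untreated healthy mean as a dashed line. Plet1 reads 8.05 to 8.64 against 11.18 to 12.63, while Saa3 spreads from 6.63 to 12.04 over the untreated mice alone.

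Genes of the drug's own target pathway passed in both directions and at a share near that of all genes. Of 24 listed, 20 were tested, and 2 rose and 2 fell, 10% in each direction, beside 7.58% and 5.58% of all genes. The rises numbered 1 without untreated mice 5 or 7 or cyclosporine mice 4, 7 or 9, and the falls 1 without untreated mouse 7 or cyclosporine mice 4, 7 or 9. Ppia, the target cyclophilin A, was not among the 20 tested here. The calcineurin catalytic subunits Ppp3ca, Ppp3cb and Ppp3cc changed by 0.06 ± 0.07, -0.04 ± 0.07 and -0.47 ± 0.16 and did not pass (adjusted p = 0.654, 0.797 and 0.0642). The NFAT factors Nfatc1, Nfatc2 and Nfatc3 changed by -0.19 ± 0.13, -0.06 ± 0.09 and 0.09 ± 0.08 (adjusted p = 0.374, 0.716 and 0.487). Rcan1, a calcineurin inhibitor that NFAT itself induces, read 8.36, 8.45, 8.59 and 8.53 in cyclosporine colitis, against 8.62, 8.38, 8.84 and 8.46 in untreated colitis, and its change was -0.09 ± 0.11 (adjusted p = 0.639). Its relative Rcan2 read 6.33, 6.85, 6.71 and 6.70 in cyclosporine colitis, against 5.87, 5.87, 6.19 and 5.57 in untreated colitis, and rose by 0.77 ± 0.13 (adjusted p = 0.00105). Ppif, the mitochondrial cyclophilin, rose by 0.53 ± 0.16, while Ppib, the cyclophilin of the secretory pathway, fell by 0.24 ± 0.08 and Akap5, an anchor protein for calcineurin, by 0.32 ± 0.08 (adjusted p = 0.0319, 0.0452 and 0.0134). The call of Ppif was lost without any one of untreated mice 5 or 7 or cyclosporine mice 4, 7 or 9 (0.0647 to 0.109), and that of Ppib without any one of untreated mice 6 or 7 or of the cyclosporine mice (0.0581 to 0.124).

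Among 20 tested NFAT target genes of activated T cells, 4 fell and 15 were lower in cyclosporine colitis, with a median change of -0.27 (all genes: -0.0083). That median was -0.12 without untreated mouse 5, and -0.13 with no filter or with the replicate block. The block fits a term for each mouse number, although that number is only a name within a group. The share that fell was 20%, against 5.58% of all genes. Tnf, tumour necrosis factor, which macrophages also make, read 7.32, 6.96, 7.21 and 7.47 in cyclosporine colitis, against 8.23, 8.04, 9.09 and 8.51 in untreated colitis, and fell by 1.23 ± 0.24 (adjusted p = 0.00248). Its groups did not overlap, and its call held without any single mouse. Il2ra, the interleukin 2 receptor alpha chain, fell by 0.66 ± 0.18, Tnfrsf9 by 0.65 ± 0.18 and Ctla4, an inhibitory receptor, by 0.55 ± 0.18 (adjusted p = 0.0217, 0.0261 and 0.0451). Il2ra lost its call without untreated mice 5, 7 or 10 or cyclosporine mice 7 or 9, Tnfrsf9 without untreated mice 5 or 7 or cyclosporine mice 7 or 9, and Ctla4 without any mouse but untreated mouse 6 (adjusted p 0.0553 to 0.138 over these fits). The number of falls was 1 without any one of untreated mice 5 or 7 or cyclosporine mice 7 or 9, 6 without untreated mouse 6, and 3 without each of the others. In the same arrays 17 of 18 T cell markers were lower, with a median of -0.35. It was -0.08 without untreated mouse 5 and -0.15 with the replicate block. Cd5, a T cell surface receptor, was the one that passed (5.56%, near the 5.58% of all genes), falling by 0.45 ± 0.11 (adjusted p = 0.00899). The mean level of the T cell list was 6.27 to 6.73 in cyclosporine colitis, against 6.38 to 7.63 in untreated colitis. Untreated mouse 5 was the high one, and untreated mouse 6 lay within the cyclosporine range. The number that fell was 6 without untreated mouse 6, 2 without untreated mouse 10 or cyclosporine mouse 10, and 1 without each of the others. In tissue arrays fewer cells of a type and less RNA per cell cannot be told apart.

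All 17 neutrophil markers tested were lower in cyclosporine colitis, with a median change of -1.46 that was -0.94 without untreated mouse 7, and 5 fell (29.4%). Cd177, a neutrophil surface protein, read 10.08, 9.58, 9.72 and 9.13 in cyclosporine colitis, against 10.58, 11.44, 11.47 and 11.11 in untreated colitis, and fell by 1.52 ± 0.21 (adjusted p = 0.000223). Mmp9, a matrix protease, fell by 1.58 ± 0.48, Cxcr2, the receptor neutrophils follow, by 1.66 ± 0.52, and Ltf, the granule protein lactoferrin, by 1.37 ± 0.42 (adjusted p = 0.0363, 0.0425 and 0.0365). The mean of the list was 5.95 to 6.18 in cyclosporine colitis, against 7.29, 6.34, 9.47 and 7.45 in untreated colitis mice 5, 6, 7 and 10, and 5.74 to 5.88 in untreated healthy mice. Cyclosporine mice were alike, whereas untreated mouse 7 was far above and untreated mouse 6 barely above them. The number that fell was 16 without untreated mouse 6 and 1 to 3 without any other single mouse. Cd177 kept its call without any single mouse, but its readings did not follow the list over the untreated mice. Untreated mice 6 and 7 read 11.44 and 11.47 for it, at list means of 6.34 and 9.47. Mmp9 lost its own without untreated mice 5 or 7 or cyclosporine mice 4, 7 or 9 (0.0528 to 0.121) and changed by -1.0 without untreated mouse 7. Cxcr2 lost it without any mouse but untreated mouse 6 (0.054 to 0.149), and Ltf without untreated mouse 7 or any one of the cyclosporine mice (0.0586 to 0.130).

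All 16 acute cytokines and chemokines tested were lower in cyclosporine colitis, with a median change of -0.72 (-0.42 without untreated mouse 7 and -1.19 without untreated mouse 6), and 6 fell (37.5%): Tnf, Cxcl5, Il1b, Il1a, Il1rn and Lif. Il1rn, the natural blocker of interleukin 1, fell by 0.42 ± 0.13 and Lif by 0.22 ± 0.07 (adjusted p = 0.0399 and 0.0459). The number was 11 without untreated mouse 6, 2 without untreated mouse 7 or cyclosporine mice 4 or 7, 3 without cyclosporine mouse 9, and 4 or 5 otherwise. Il1rn lost its call without untreated mice 6 or 7 or cyclosporine mice 4, 7 or 10, and Lif without untreated mice 5, 7 or 10 or cyclosporine mice 4, 7 or 9 (0.0597 to 0.137). All 19 interferon gamma and MHC class II genes were lower, with a median of -0.45, and 2 fell (10.5%, beside 5.58% of all genes). They were Psmb8 by 0.64 ± 0.17 and Tap1 by 0.70 ± 0.21 (adjusted p = 0.0157 and 0.0317), both of antigen processing. Without untreated mouse 6 there were 10, without cyclosporine mice 4 or 10 there were 3, and without any other single mouse there was 1. Tap1 lost its call without untreated mice 5, 7 or 10 or cyclosporine mice 7, 9 or 10 (0.0553 to 0.099). No gene of the 17 type I interferon-induced ones passed in limma, 3 having an unadjusted p under 0.05, and 2 fell without untreated mouse 6 and 1 without cyclosporine mouse 9. Of 21 Toll-like receptor and NF-kB genes, 7 fell (33.3%) and 1 rose (4.76%, beside 7.58% of all genes). Tlr2, a sensor of bacterial lipoproteins, fell by 0.62 ± 0.15, Nfkb2 by 0.60 ± 0.14 and Tnfaip3, a feedback inhibitor, by 0.47 ± 0.12 (adjusted p = 0.012, 0.00837 and 0.0108). Tlr5, the flagellin sensor, rose by 0.49 ± 0.09 (adjusted p = 0.00218). The 7 falls became 3 without untreated mouse 7, cyclosporine mouse 4 or cyclosporine mouse 9, 4 without cyclosporine mouse 7, and 5 to 9 without the others.

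**Figure D3:**
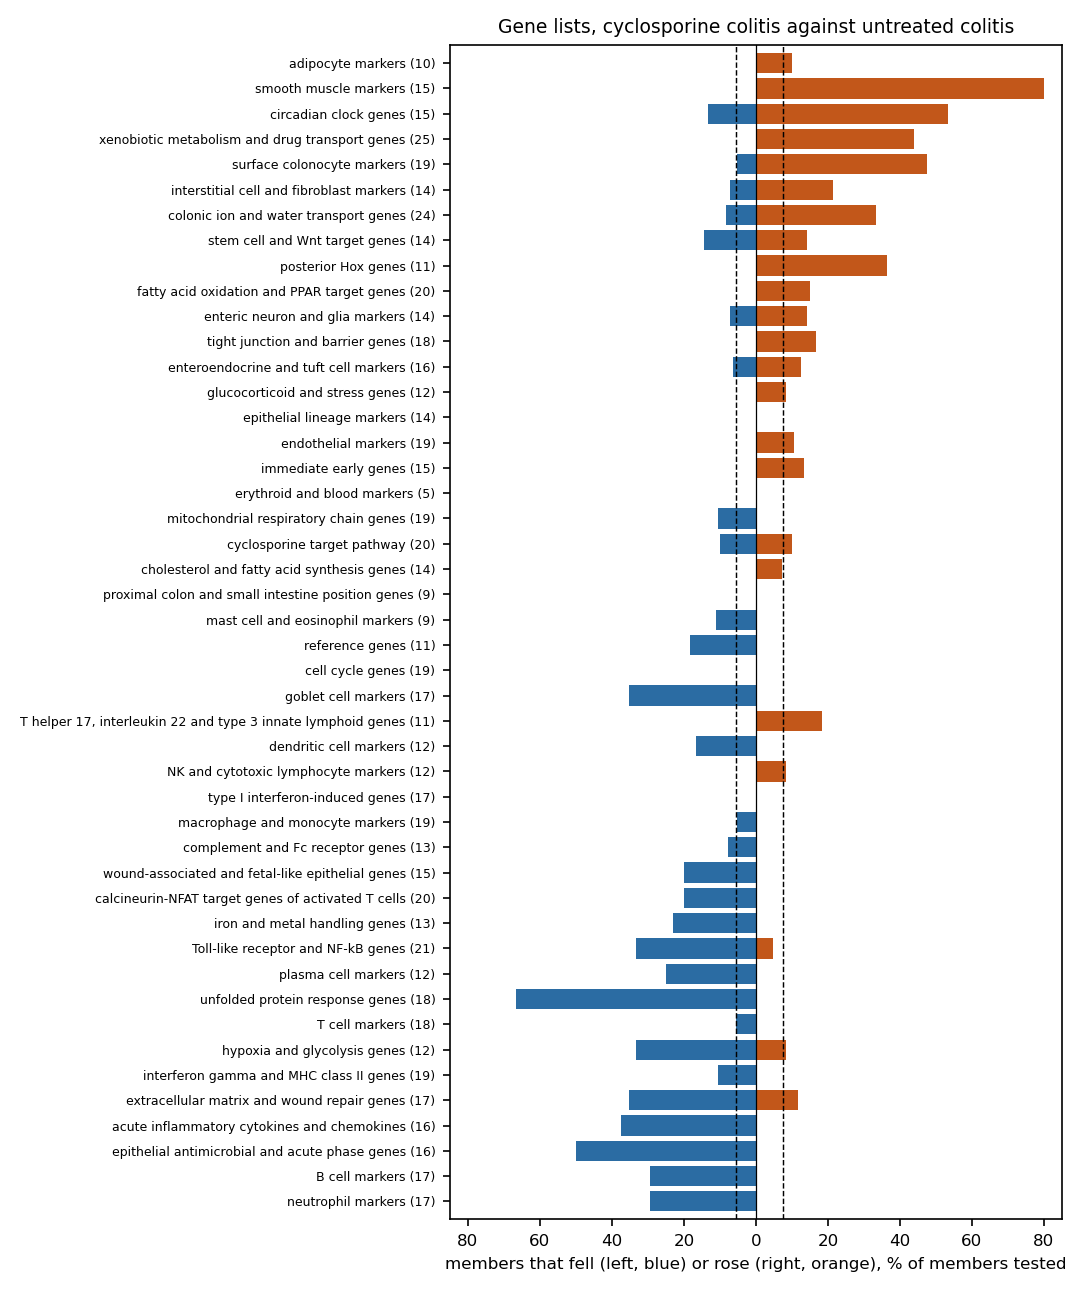
Bars give, for each of the 46 gene lists, the percentage of tested members (number in brackets) that fell, to the left in blue, or rose, to the right in orange, in cyclosporine colitis against untreated colitis, with lists ordered by median change. Dashed lines mark the 5.58% and 7.58% of all genes that fell and rose, and the longest bars are those of smooth muscle (80% rose) and the unfolded protein response (66.7% fell).

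B cell genes were lower in all 17 markers tested, with a median change of -0.95, and 5 fell (29.4%). Cr2, the complement receptor of follicular B cells, read 7.09, 6.57, 6.44 and 8.91 in cyclosporine colitis, against 9.94, 8.25, 8.26 and 8.63 in untreated colitis, and fell by 1.52 ± 0.45 (adjusted p = 0.0318). Cyclosporine mouse 10 lay above 3 of the untreated mice, while the other 3 cyclosporine mice lay below all of them. In the mean of the list cyclosporine mouse 10 again lay above 3 untreated mice, with 7.27, 7.01, 6.67 and 8.45 in cyclosporine colitis, against 9.20, 7.64, 8.17 and 8.11 in untreated colitis. Spib, a factor of the B lineage, fell by 1.38 ± 0.38 and Cxcl13, the attractant of lymphoid follicles, by 1.12 ± 0.33 (adjusted p = 0.0214 and 0.0313). The number of falls was 16 without cyclosporine mouse 10, 12 without untreated mouse 6, 2 or 3 without untreated mice 7 or 10, and 0 without untreated mouse 5 or any one of cyclosporine mice 4, 7 and 9. The calls of Cr2, Spib and Cxcl13 were each lost without untreated mouse 5 or any one of cyclosporine mice 4, 7 and 9, that of Cr2 also without untreated mouse 10 and that of Cxcl13 also without untreated mouse 7 (0.0514 to 0.108). How many lymphoid follicles each tissue piece held was not measured.

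Of 12 plasma cell markers 3 fell (25%), Fkbp11 by 0.69 ± 0.14, Mzb1 by 0.94 ± 0.25 and Creld2 by 0.53 ± 0.11 (adjusted p = 0.00265, 0.0181 and 0.00433). Fkbp11 and Creld2 serve protein folding in other secreting cells too. The call of Mzb1 was lost without untreated mice 5 or 7 (0.0524 to 0.065), and the number that fell was 7 without untreated mouse 6, 5 without cyclosporine mouse 10 and 2 to 4 without the others. Of 19 macrophage markers 1 fell (5.26%, near the 5.58% of all genes), Cd14, a co-receptor for bacterial endotoxin, by 1.01 ± 0.25 (adjusted p = 0.0132), a call lost without cyclosporine mouse 7 (0.0519), and 5 fell without untreated mouse 6. Among 12 dendritic cell markers 2 fell (16.7%), Irf8 by 0.58 ± 0.14 and Fscn1 by 0.50 ± 0.13 (adjusted p = 0.0122 and 0.0156). Among 9 mast cell and eosinophil markers 1 fell (11.1%), Il5ra by 1.04 ± 0.18 (adjusted p = 0.00108). The call of Fscn1 was lost without untreated mouse 5 (0.0511). Macrophage, dendritic and mast cell lists had medians of -0.17, -0.11 and -0.08, that of macrophages being -0.06 without untreated mouse 7, -0.08 without cyclosporine mouse 9 and -0.32 without untreated mouse 6.

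**Figure D4:**
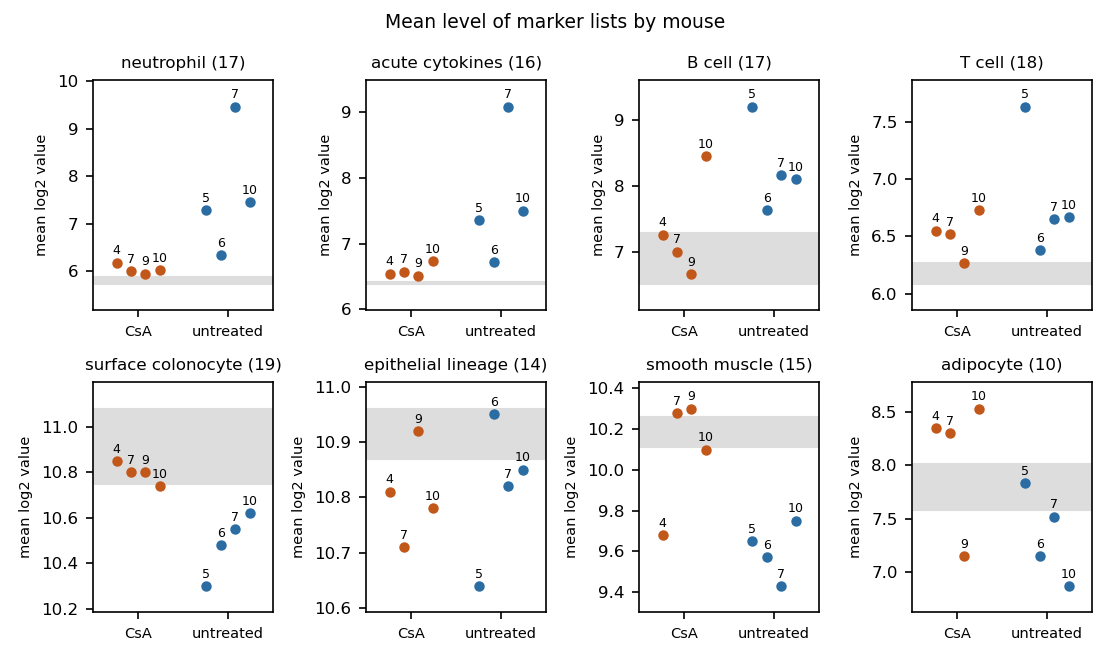
Mean log2 value of 8 marker lists (number of genes in brackets) in each mouse of cyclosporine colitis (orange) and untreated colitis (blue), labelled with the mouse number, and the range over untreated healthy mice in grey. Untreated mouse 7 stands out for neutrophils at 9.47, untreated mouse 5 for T cells at 7.63, cyclosporine mouse 10 for B cells at 8.45, cyclosporine mouse 4 for smooth muscle at 9.68 and cyclosporine mouse 9 for adipocytes at 7.15.

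Of 16 antimicrobial and acute phase genes 8 fell (50%), with a median change of -0.76: Dmbt1, Retnlb, Slpi, Nos2, Duox2, Saa2, Hp and Saa3. Dmbt1, a mucosal scavenger receptor, read 11.59, 11.25, 11.64 and 11.66 in cyclosporine colitis, against 12.09, 12.20, 12.23 and 12.04 in untreated colitis, and fell by 0.61 ± 0.09 (adjusted p = 0.000303). Slpi, a protease inhibitor, fell by 1.64 ± 0.27 and Duox2, an oxidase that makes hydrogen peroxide at the surface, by 0.79 ± 0.15 (adjusted p = 0.000768 and 0.00206). The count was 7 to 9 without any single mouse. Among 15 wound-associated genes 3 fell (20%, beside 5.58% of all genes), namely Plet1, Clca4b and Ly6d, the last by 1.04 ± 0.31 (adjusted p = 0.0299). Ly6d, a surface protein of squamous and injured epithelium, lost its call without untreated mice 5 or 7 or cyclosporine mice 4, 7 or 9 (0.0638 to 0.101). The number that fell was 6 without untreated mouse 6, 1 without untreated mouse 7 or cyclosporine mouse 7, and 2 to 4 without the others.

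Of 19 surface colonocyte markers 9 rose and 1 fell, 47.4% rising beside 7.58% of all genes. Mep1a, the brush border protease meprin alpha, read 10.51, 10.54, 10.49 and 10.48 in cyclosporine colitis, against 9.29, 9.67, 9.09 and 9.43 in untreated colitis, and rose by 1.14 ± 0.18 (adjusted p = 0.000434). Slc26a3, the chloride and bicarbonate exchanger of the colon, read 12.94, 12.92, 12.86 and 12.95 in cyclosporine colitis, against 11.62, 11.77, 12.04 and 12.26 in untreated colitis, and rose by 0.99 ± 0.16 (adjusted p = 0.000645). In both, the cyclosporine mice were close together and stood above every untreated mouse. The carbonic anhydrases Car1, Car2 and Car4 rose by 0.66 ± 0.12, 0.58 ± 0.12 and 0.74 ± 0.17, and the water channel Aqp8 by 0.67 ± 0.20 (adjusted p = 0.00159, 0.00507, 0.00683 and 0.0301). Guca2b, the hormone uroguanylin, was the one that fell, by 0.48 ± 0.10 (adjusted p = 0.00343). Aqp8 lost its call without untreated mice 5 or 10 or cyclosporine mice 4 or 7 (0.0798 to 0.0937). The rises numbered 6 without untreated mouse 5 or cyclosporine mouse 4, and 7 to 9 without the others.

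Over the same mice, none of 14 markers shared by all epithelial cells passed in limma, 1 having an unadjusted p under 0.05, and their median change was -0.01, with 1 rise without untreated mouse 6. Their mean level was 10.71 to 10.92 in cyclosporine colitis, against 10.64 to 10.95 in untreated colitis. Of 17 goblet cell markers 6 fell (35.3%), and 5 or 6 without any single mouse. In all 10 were lower and 7 higher, with a median change of only -0.10. The mean level of that list overlapped, at 10.80 to 11.13 in cyclosporine colitis, against 10.94 to 11.50 in untreated colitis. Spink4 fell by 0.84 ± 0.19, Galnt12, which starts mucin sugar chains, by 0.64 ± 0.11, Spdef, a goblet cell transcription factor, by 0.55 ± 0.13, and Clca3b by 0.54 ± 0.10 (adjusted p = 0.00618, 0.00139, 0.00969 and 0.0024). No cell cycle gene of 19 passed, 2 having an unadjusted p under 0.05, and 1 fell without untreated mouse 6.

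Of 24 ion and water transport genes 8 rose (33.3%) and 2 fell. Scnn1a, the alpha subunit of the epithelial sodium channel, read 10.16, 10.24, 10.14 and 10.20 in cyclosporine colitis, against 9.63, 9.68, 9.54 and 9.77 in untreated colitis, and rose by 0.53 ± 0.08 (adjusted p = 0.000317). Nr3c2, the aldosterone receptor that governs that channel, rose by 0.49 ± 0.11, Slc4a4, a bicarbonate carrier, by 0.93 ± 0.19, and Slc16a1, a carrier of short-chain fatty acids, by 0.47 ± 0.10 (adjusted p = 0.00572, 0.00319 and 0.00632). Slc12a2, which loads chloride for secretion, fell by 0.42 ± 0.11 (adjusted p = 0.0157), a call lost without cyclosporine mouse 7 (0.0576). The rises numbered 5 without cyclosporine mouse 4 and 6 to 9 without the others.

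Of 25 xenobiotic metabolism and drug transport genes 11 rose (44%) and 22 were higher, with a median change of 0.30 (0.56 under the stricter filter). Gstm1, a glutathione transferase, read 8.88, 9.02, 8.76 and 8.79 in cyclosporine colitis, against 7.83, 8.04, 8.03 and 7.92 in untreated colitis, and rose by 0.91 ± 0.12 (adjusted p = 0.000149). Sult1a1, a sulphotransferase of phenols, read 11.05, 10.78, 10.80 and 10.75 in cyclosporine colitis, against 9.02, 9.47, 9.35 and 9.47 in untreated colitis, and rose by 1.52 ± 0.23 (adjusted p = 0.000364). The untreated healthy means of the same genes were 9.17 ± 0.11 and 11.16 ± 0.14 (SD, n = 4), so the cyclosporine mice lay between untreated colitis and healthy mice. Ces1f, a carboxylesterase, rose by 1.33 ± 0.20, Cyp2s1 by 1.17 ± 0.21, and Gstm3 by 1.17 ± 0.21 (adjusted p = 0.000304, 0.00142 and 0.00164). Cyp3a13, of the P450 subfamily that clears cyclosporine in humans, rose by 0.75 ± 0.20 (adjusted p = 0.0189), a call lost without untreated mice 5 or 7 or cyclosporine mouse 4 (0.0562 to 0.0642). The number that rose was 16 without untreated mouse 6 and 8 to 13 without the others.

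Among other metabolic genes, Scd1, the enzyme that desaturates stearate, read 11.51, 11.33, 9.89 and 11.74 in cyclosporine colitis, against 10.45, 8.96, 9.58 and 9.52 in untreated colitis, and rose by 1.49 ± 0.35 (adjusted p = 0.00858). Cyclosporine mouse 9 lay within the untreated range, and the same mouse had the lowest mean of its group over the fat cell markers given below. Scd1 was the one riser among 14 genes of cholesterol and fatty acid synthesis (7.14%), and 2 rose without untreated mouse 6. Of 20 fatty acid oxidation genes 3 rose (15%, beside 7.58% of all genes), and 5 without untreated mouse 6. Among the 3 were Acot2 by 0.93 ± 0.16 and Acadm by 0.46 ± 0.10 (adjusted p = 0.000855 and 0.00588). Of 12 hypoxia and glycolysis genes 1 rose (8.33%) and 4 fell (33.3%, beside 5.58% of all genes). Pgk1 fell by 0.44 ± 0.09 and the glucose carrier Slc2a1 by 0.39 ± 0.08 (adjusted p = 0.00331 and 0.00402), the others being Bnip3 and Egln3. Ndrg1, a stress-induced gene, was the riser, by 0.32 ± 0.10 (adjusted p = 0.0451), a call lost without untreated mice 5 or 10 or cyclosporine mice 4, 7 or 9 (0.0656 to 0.124). Bnip3 and Egln3 lost their call without either of untreated mice 5 or 10 or any one of cyclosporine mice 4, 9 and 10, Bnip3 also without untreated mouse 7 and Egln3 also without untreated mouse 6 (0.0504 to 0.139), and the falls then numbered 2 to 4.

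The unfolded protein response, by which cells make more chaperones when the endoplasmic reticulum is loaded with protein, was lower in nearly all of its genes. Of 18 genes tested 12 fell (66.7%, against 5.58% of all genes) and 17 were lower, with a median change of -0.32. Hspa5, the chaperone BiP, read 8.99, 9.13, 9.06 and 9.57 in cyclosporine colitis, against 9.60, 9.66, 9.82 and 9.65 in untreated colitis, and fell by 0.49 ± 0.12 (adjusted p = 0.0104). Sdf2l1, a partner of BiP, read 8.06, 7.97, 8.18 and 8.15 in cyclosporine colitis, against 8.56, 8.55, 8.81 and 8.74 in untreated colitis, and fell by 0.57 ± 0.10 (adjusted p = 0.00169). Calr, the chaperone calreticulin, read 11.83, 11.63, 11.78 and 11.81 in cyclosporine colitis, against 12.14, 12.10, 12.13 and 12.17 in untreated colitis, and fell by 0.37 ± 0.07 (adjusted p = 0.00198). The falls were small, and arrays did not overlap in these 3 genes. Asns, asparagine synthetase, which belongs to the amino acid arm of the response, fell by 0.69 ± 0.17, Creld2 by 0.53 ± 0.11, Dnajb11 by 0.39 ± 0.08, Pdia6 by 0.39 ± 0.08, Manf by 0.36 ± 0.09, Dnajc3 by 0.31 ± 0.06 and Hsp90b1 by 0.30 ± 0.07 (adjusted p 0.00323 to 0.0135). Ddit3, the factor CHOP of prolonged stress, was the one that was not lower, with a change of 0.11 ± 0.12 (adjusted p = 0.621), and it was singled out after its values were seen. The number that fell was 10 to 12 without any single mouse. Plasma cell markers, whose cells are rich in these chaperones, were lower in the same arrays, 11 of 12, at a mean level of 7.61 to 7.88 in cyclosporine colitis, against 7.60 to 8.54 in untreated colitis, and their part in the result was not tested.

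Promoters of 6 of these genes hold the endoplasmic reticulum stress response element, CCAAT, then 9 bases, then CCACG, searched on both strands in RefSeq windows of GRCm38.p6 from 250 bases before to 50 after each start. The element was found in 39 of 32851 windows (0.119%) and for 0.137% of gene symbols, and in 6 of the 17 listed genes with a window. All 6 fell, and so did 5 of the 11 without it, which is a description of letters and not of binding. The sites are printed 5′ to 3′ on the strand of the gene, because they show what these chaperone genes have in common, with the element in capitals (it reads CGTGG first and ATTGG last where it lies on the opposite strand):
Hspa5: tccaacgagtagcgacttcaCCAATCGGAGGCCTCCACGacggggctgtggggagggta
Calr: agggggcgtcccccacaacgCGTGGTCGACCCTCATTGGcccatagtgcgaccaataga
Hsp90b1, upstream: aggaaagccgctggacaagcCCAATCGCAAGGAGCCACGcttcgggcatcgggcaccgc
Hsp90b1, downstream: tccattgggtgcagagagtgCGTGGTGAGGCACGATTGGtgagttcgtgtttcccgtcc
Pdia6: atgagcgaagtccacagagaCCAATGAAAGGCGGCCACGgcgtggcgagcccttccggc
Dnajc3: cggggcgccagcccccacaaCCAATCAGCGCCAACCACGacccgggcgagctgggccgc
Creld2: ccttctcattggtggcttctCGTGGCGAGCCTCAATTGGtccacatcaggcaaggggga
They lie upstream of the gene start, in GRCm38.p6, at chr2:34772005-34772063 on the plus strand for Hspa5, chr8:84847055-84847113 on the minus strand for Calr, chr10:86705618-86705676 and chr10:86705513-86705571 on the minus strand for Hsp90b1, and, all on the plus strand, chr12:17266471-17266529 for Pdia6, chr14:118937807-118937865 for Dnajc3 and chr15:88819500-88819558 for Creld2. The distance from the end of the element to the start was 46 bases in Hspa5 and 193 in the farther site of Hsp90b1, the others lying between.

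**Figure D5:**
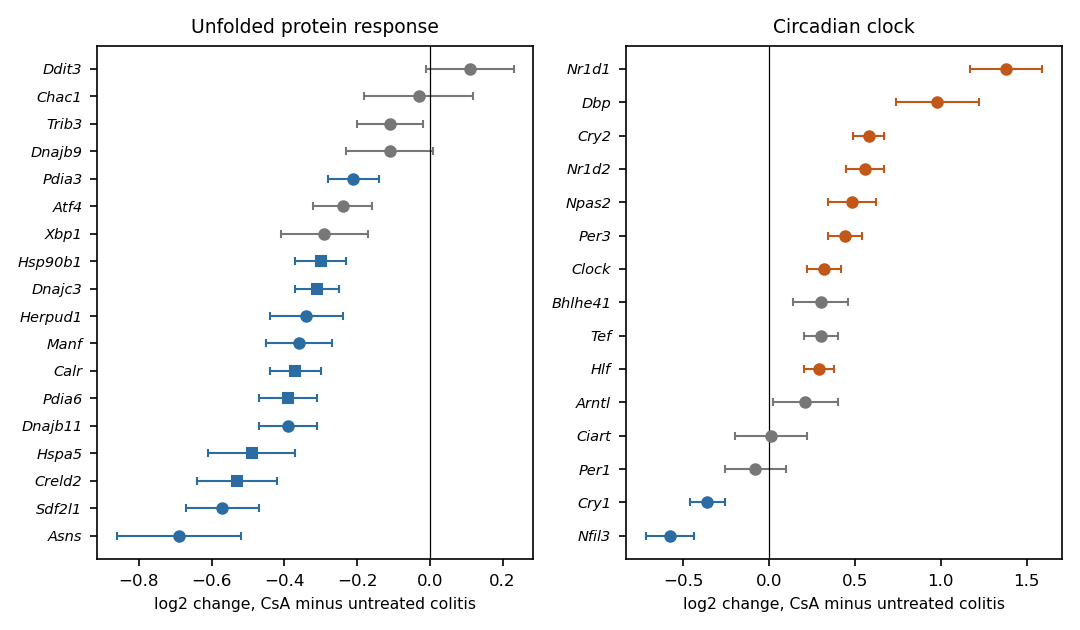
Log2 change (cyclosporine colitis minus untreated colitis, n = 4 mice each) with its standard error for unfolded protein response genes, left, and circadian clock genes, right, with genes that fell in blue, genes that rose in orange and the rest in grey. Squares mark the 6 genes whose promoter holds the stress response element, and 12 of 18 genes on the left fell while 8 of 15 on the right rose.

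Circadian genes changed in both directions. Of 15 tested 8 rose (53.3%) and 2 fell, with a median change of 0.30. Nr1d1, the repressor REV-ERB alpha, read 9.78, 10.06, 10.09 and 10.03 in cyclosporine colitis, against 8.61, 7.89, 8.64 and 9.31 in untreated colitis, and rose by 1.38 ± 0.21 (adjusted p = 0.000434). Its relative Nr1d2 rose by 0.56 ± 0.11, Dbp, an activator of clock output, by 0.98 ± 0.24, Cry2 by 0.58 ± 0.09 and Per3 by 0.44 ± 0.10 (adjusted p = 0.00341, 0.0118, 0.000563 and 0.00782). Nfil3, which competes with Dbp for the same sites, read 6.81, 6.75, 6.77 and 6.82 in cyclosporine colitis, against 7.25, 7.40, 7.59 and 7.22 in untreated colitis, and fell by 0.58 ± 0.14 (adjusted p = 0.0115). Cry1, a repressor of the loop, fell by 0.36 ± 0.10 (adjusted p = 0.0213), a call lost without untreated mice 7 or 10 or cyclosporine mouse 9 (0.0558 to 0.0696). Rises numbered 5 without untreated mice 5, 7 or 10 or cyclosporine mouse 7, and 6 or 7 without the others. These genes swing over the day in mouse tissues, and treatment and hour of sampling cannot be told apart. In untreated healthy mice Nr1d1 averaged 10.27 ± 0.22 and Dbp 8.87 ± 0.49 (SD, n = 4), near the cyclosporine means of 9.99 and 8.68. The E-box CACGTG, on both strands of the same windows, was found in 5 of the 15 genes, beside 8.09% of all gene symbols and 7.15% of all windows. Of those 5 genes 0 rose and 1 fell, and of the 10 without it 8 rose and 1 fell.

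Of 15 smooth muscle markers, genes of the muscle wall, 12 rose (80%) and 14 were higher, with a median change of 0.44. The rises numbered 4 in the fit of the 8 arrays alone and 7 with the replicate block. Casq2, a calcium store protein, read 7.07, 7.31, 7.35 and 7.01 in cyclosporine colitis, against 5.94, 6.04, 5.79 and 6.40 in untreated colitis, and rose by 1.14 ± 0.16 (adjusted p = 0.000241). Myh11, smooth muscle myosin, read 11.59, 12.32, 12.38 and 12.17 in cyclosporine colitis, against 11.61, 11.62, 11.23 and 11.75 in untreated colitis, and rose by 0.57 ± 0.15 (adjusted p = 0.0184). Cyclosporine mouse 4 lay among the untreated mice for Myh11, whose call was lost without untreated mouse 7 or cyclosporine mice 7 or 9 (0.0604 to 0.0692). Myocd, the master regulator of smooth muscle, rose by 0.59 ± 0.12 and Kcnmb1, a potassium channel subunit, by 0.62 ± 0.12 (adjusted p = 0.00278 and 0.00226). The mean of the list was 9.68, 10.28, 10.30 and 10.10 in cyclosporine colitis, against 9.65, 9.57, 9.43 and 9.75 in untreated colitis, and 10.11 to 10.26 in untreated healthy mice. The number that rose was 6 without untreated mouse 7 or cyclosporine mice 7 or 9, and 8 to 13 without the others.

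Of 14 enteric neuron and glia markers 2 rose (14.3%) and 1 fell (7.14%), beside 7.58% and 5.58% of all genes. Snap25 of the synapse rose by 1.04 ± 0.13 and Stmn2 by 0.60 ± 0.10 (adjusted p = 0.000103 and 0.00111). Ret, the receptor for a nerve growth factor family, fell by 0.54 ± 0.15 (adjusted p = 0.0197). Cyclosporine mouse 4 was lowest of its group for both risers and for the muscle list, and 4 rose without it. Ret lost its call without untreated mice 5 or 7 or cyclosporine mouse 4 (0.0656 to 0.069). Among 14 interstitial cell and fibroblast markers 3 rose (21.4%) and 1 fell (7.14%). Ano1, the channel of gut pacemaker cells, rose by 0.68 ± 0.13 and Dpt by 0.76 ± 0.15 (adjusted p = 0.00295 and 0.00286). Grem1, a BMP blocker, fell by 1.17 ± 0.30 (adjusted p = 0.0153). The call of Grem1 was lost without untreated mouse 7 or cyclosporine mouse 4 (0.0517 to 0.0588), and the rises numbered 5 without untreated mouse 10. Of 17 matrix and repair genes 6 fell (35.3%) and 2 rose, with a median of -0.50, Col4a1 falling by 0.64 ± 0.13, Col1a1 by 0.61 ± 0.15 and Timp1, a protease inhibitor, by 1.24 ± 0.33 (adjusted p = 0.00291, 0.0112 and 0.017). Without untreated mouse 6 there were 11 falls, without untreated mouse 7 there were 2, and Timp1 then lost its call (0.0532). Postn, a matrix protein, rose by 0.63 ± 0.11 (adjusted p = 0.001).

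Of 11 posterior Hox genes 4 rose (36.4%, beside 7.58% of all genes), and the median change of the 11 was only 0.09. The 4 were the neighbours Hoxd10, Hoxd11, Hoxd12 and Hoxd13, by 0.87 ± 0.20, 1.31 ± 0.27, 0.61 ± 0.18 and 0.82 ± 0.23 (adjusted p = 0.0088, 0.00363, 0.0293 and 0.0255). Hoxd11 read 8.92, 8.99, 9.0 and 8.97 in cyclosporine colitis, against 7.20, 8.63, 7.12 and 7.68 in untreated colitis, so untreated mouse 6 lay near the cyclosporine mice. The call of Hoxd13 was lost without untreated mice 5 or 7 or cyclosporine mice 7 or 9, and that of Hoxd12 without untreated mice 5, 7 or 10 or cyclosporine mouse 7 (0.0511 to 0.110), and the rises numbered 2 without untreated mice 5 or 7 or cyclosporine mouse 7. No gene of 9 that mark the proximal colon or small intestine passed, and 0 had an unadjusted p under 0.05.

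All 10 fat cell genes tested were higher, with a median change of 0.62, and 1 rose (10%, beside 7.58% of all genes). It was Retn, the hormone resistin, by 1.51 ± 0.46 (adjusted p = 0.0361). Retn read 9.77, 9.76, 7.91 and 10.26 in cyclosporine colitis, against 9.02, 7.52, 8.06 and 7.03 in untreated colitis. The mean of the list was 8.35, 8.30, 7.15 and 8.53 in cyclosporine colitis, against 7.83, 7.15, 7.52 and 6.87 in untreated colitis, with cyclosporine mouse 9 as low as untreated mouse 6. Without cyclosporine mouse 9 the number that rose was 8, and without untreated mice 6, 7 or 10 or cyclosporine mice 4, 7 or 10 the call of Retn was lost (0.0626 to 0.110). Muscle, nerve and fat markers vary with how much of each layer a tissue piece holds. Muscle and fat list means were higher in most cyclosporine mice, as given, while the nerve list mean was 6.62, 7.01, 6.94 and 6.92 in cyclosporine colitis, against 6.74 to 6.78 in untreated colitis, cyclosporine mouse 4 lying below every untreated mouse. Their part in the other results was not tested. Of 11 reference genes 2 fell (18.2%, beside 5.58% of all genes), Gusb by 0.72 ± 0.11 and Pgk1, already given (adjusted p of Gusb = 0.000487). In all 9 were lower, with a median change of -0.10. The mean of that list was 9.87 to 9.94 in cyclosporine colitis, against 10.07 to 10.10 in untreated colitis and 9.81 to 9.98 in untreated healthy mice. Its bearing on the small falls given above was not tested.

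Cyclosporine colitis was also set directly against probiotic colitis, which shares the DSS. In that contrast 1884 genes rose and 2006 fell, 11.3% and 12% of the genes tested and 23.2% together. The cyclosporine arrays enter both contrasts, so values are given side by side. Plet1 differed by -4.04 ± 0.35 between cyclosporine and probiotic colitis, Steap4 by -2.00 ± 0.19, Nos2 by -3.06 ± 0.43 and Tnf by -1.74 ± 0.24 (adjusted p = 2.88e-06, 6.94e-06, 0.000143 and 0.000108). Mptx1 was higher by 2.88 ± 0.52, Tppp3 by 1.51 ± 0.15, Slc26a3 by 1.55 ± 0.16 and Sult1a1 by 1.93 ± 0.23 (adjusted p = 0.000724, 9.89e-06, 1.35e-05 and 3.89e-05). All 8 passed here, but they were picked from genes that passed against untreated colitis. With the cyclosporine arrays shared, this is no separate support for either contrast. The stromal genes Dpt and Cd34, the lymphatic gene Lyve1 and the vessel receptor Tek differed from probiotic colitis by -0.09, 0.02, 0.01 and 0.09 (adjusted p = 0.730, 0.944, 0.986 and 0.709), although against untreated colitis Cd34 rose by 0.70 ± 0.15, Lyve1 by 0.81 ± 0.23 and Tek by 0.61 ± 0.14 (adjusted p = 0.00618, 0.0248 and 0.00629). Lyve1 and Tek were the 2 that rose of 19 endothelial markers (10.5%, beside 7.58% of all genes). Of the 19, 8 were higher and 11 lower, with a median change of -0.02. Lyve1 lost that call without untreated mice 6 or 10 or cyclosporine mice 4, 7 or 10 (0.0503 to 0.0849). Goblet cell Spdef and Agr2 likewise gave -0.16 and -0.02 against probiotic colitis (adjusted p = 0.429 and 0.886), and -0.55 ± 0.13 and -0.32 ± 0.09 against untreated colitis (adjusted p = 0.00969 and 0.0194), the call of Agr2 being lost without untreated mice 7 or 10 or cyclosporine mice 7 or 10 (0.0501 to 0.0646).

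Untreated colitis against untreated healthy mice shares the untreated colitis arrays with the main comparison, so its values are set beside those of the drug without being counted together. In it 1957 genes rose and 2404 fell, 11.7% and 14.4% of those tested and 26.1% together. Plet1 was 4.82 ± 0.35 higher in untreated colitis than in healthy mice, Steap4 2.85 ± 0.19, Nos2 3.44 ± 0.43 and Hspa5 0.58 ± 0.12 (adjusted p = 1.24e-07, 6.63e-08, 2.41e-05 and 0.00138). Mptx1 differed there by -4.2 ± 0.52, Slc26a3 by -1.18 ± 0.16, Sult1a1 by -1.83 ± 0.23 and Nr1d1 by -1.66 ± 0.21 (adjusted p = 1.98e-05, 4.84e-05, 2.14e-05 and 2.83e-05). Cyclosporine colitis was not tested against healthy mice, so the means that follow are only set side by side. Osr1, Retnla and Tppp3 had cyclosporine means of 9.38, 5.66 and 9.54, above their healthy means of 8.81, 5.54 and 9.30. For Tlr2, Duox2 and Cd177 the cyclosporine means stayed above the healthy ones, Cd177 at 9.63 ± 0.39 in cyclosporine colitis, 11.15 ± 0.41 in untreated colitis and 8.29 ± 0.41 in healthy mice (SD, n = 4 each).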

How the data were processed

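RNA of 20 mouse colon pieces was measured on 1-colour arrays. The authors deposited 1 table of log2 values, normalized by RMA per the submitters' processing notes, the version and annotation being not given in the sources used here. RMA subtracts background, makes the arrays' distributions alike and sums up probes, so a change in the whole RNA of a sample is not seen. Of 41801 probe sets 29195 had values, and 22360 of these had 1 gene symbol, 1013 several and 5822 none in the platform annotation used. Arrays have no sequencing depth, so precision rests on having 4 mice in each group.

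A probe set was kept when it passed 5.30, the 25th percentile of values, on at least 4 of 20 arrays, and the brightest stood for a gene, which left 16739 of 21423 symbols. limma 3.58.1 in R 4.3.3 (lmFit, eBayes, 5 groups, no covariate) gave adjusted p by Benjamini-Hochberg over all genes, and p-values measure the spread between mice of these 5 groups. Probe sets without a single symbol were fitted and adjusted on their own.

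The text names the 15 largest changes in each direction among genes that passed without overlap of arrays, and members of the target pathway. In most of the 46 gene lists it names some of the members that passed. Lists that the text leaves out also held genes that passed. Of 11 T helper 17, interleukin 22 and type 3 innate lymphoid genes, 2 rose (18.2%) and 0 fell. Of 12 natural killer and cytotoxic lymphocyte markers 1 rose (8.33%) and 0 fell, and of 13 complement and Fc receptor genes 1 fell (7.69%). Of all genes 7.58% rose and 5.58% fell. Tight junction (3), immediate early (2) and glucocorticoid (1) lists held rises alone, and iron (3) and mitochondrial (2) lists falls alone. Stem cell and enteroendocrine lists held both. Members and lists were chosen with earlier results of these data known. The replicate number is a name: same-numbered mice of the 2 groups deviated from their group means with correlations of 0.029 (number 7) and -0.185 (number 10). The alternatives were other filters, scalings, variance models and probe set summaries, the 8 arrays alone and a replicate block. Other fits left out single arrays, or untreated mouse 6, probiotic colitis mouse 8 and untreated healthy mouse 2 together. The block groups mice by a number that is only a name. Cyclosporine mouse 9, alone in its number, carries no weight in the block fit. List counts without arrays were added after seeing the data. The fit was tested on simulated data with known changes. Promoters were read from RefSeq windows of GRCm38.p6. Of the tested genes 16660 were found in RefSeq by gene identifier.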

Additional observations from a re-analysis of the deposited data

Results flagged for a closer look

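In 15 of 284 groups of 4 values tested, 1 mouse lay apart from the other 3 by more of the group's range than the critical value of Dixon's outlier test. Chance gives such a value in about 1 of 20 groups, so the number is near that share, and no explanation was tested. Cyclosporine mouse 9 was apart in 5 genes. It read 8.94 for Osr1, the others 9.49 to 9.59 (gap 0.847 of the range), 6.91 for Cry1, the others 7.02 to 7.03 (0.85), 6.86 for Fkbp11, the others 7.06 to 7.1 (0.838), 6.54 for Fscn1, the others 6.69 to 6.71 (0.854), and 8.17 for Ddit3, the others 7.47 to 7.59 (0.83). Cyclosporine mouse 10 was high for Cxcl5 at 7.71 (0.851), Irf8 at 8.43 (0.884) and Nfkb2 at 8.45 (0.877), and cyclosporine mouse 4 for Sult1a1 at 11.05 (0.846).

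Among untreated mice, mouse 7 was low for Slc37a2 at 7.42 (0.844) and high for Ces1f at 6.53 (0.946) and for Ltf at 7.93 (0.832). Untreated mouse 5 was low for Dpyd at 6.0 (0.878), for Agr2 at 12.28 (0.926) and for Cry1 at 7.07 (0.877). Outside the named genes, 63 of 3052 probe sets with no gene symbol rose in cyclosporine colitis, and what they measure was not analysed here.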

How the results depend on the processing

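Of 142 genes named in the text 134 passed, 90 of these under every setting tried, and 44 lost the call in at least 1. The 1268 rises and 934 falls of the main comparison became 724 and 395 with the 8 arrays alone, and 977 and 615 with the replicate block. Without untreated mouse 6, probiotic colitis mouse 8 and untreated healthy mouse 2 together there were 1644 and 1424. Leaving out 1 mouse gave 843 to 1342 rises and 510 to 1105 falls, the falls being 510, 580 and 587 without cyclosporine mouse 7, cyclosporine mouse 4 or untreated mouse 7. Against probiotic colitis, the 1884 rises and 2006 falls became 970 and 1130 with the replicate block, and the rises were 1218 to 2302 without 1 mouse, with 1218 and 1247 without probiotic mice 7 or 5. In the fit of the 8 arrays alone, list members that fell numbered 0 for B cells, 2 for neutrophils, 2 for acute cytokines, 3 for Toll-like receptor genes and 3 for matrix genes, and those that rose 5 for surface colonocytes and 4 for smooth muscle. With the replicate block they were 0 falls for B cells, 8 for neutrophils, and 7 rises for smooth muscle and 4 for fat cells. Array weights gave 11 falls for neutrophils and 10 for matrix genes, and eBayes with trend and robust 1 and 3 falls for neutrophils and B cells. Counts of untreated colitis against healthy mice stayed within 1.5 times. As the replicate block groups mice by a number that is only a name, its values do not measure how sound a result is. The cause of these shifts was not tested. Of the genes that did not pass, Ddit3 changed sign with the replicate block (-0.1178) and lay between -0.0477 and 0.185 without 1 mouse, and Ppp3cb lay between -0.0878 and 0.0012. No gene that passed changed sign. Low signal limits genes whose group mean lay under 5.30, and 4 arrays a group limit the rest.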
